A study of Mus musculus with 2 samples.

Results

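The genes described here encode 8 subunits of the GABA-A receptor: Gabra2, Gabra4, Gabra5, Gabra6, Gabrb1, Gabrb2, Gabrg1 and Gabrg3. They are 8 of 21523 coding genes, and they lie in 3 autosomal clusters on chromosomes 5, 7 and 11. The samples were cortical tissue of C57BL/6 mice taken at embryonic day 15.5, and ChIP-seq had been run on H3K9me2, a repressive mark (dimethylated lysine 9 of histone H3). There was 1 library of wildtype genotype and 1 of TBC1D3-transgenic genotype, with 1 peak list each. The promoter of the transgene, the number of embryos per library and the founder line are not given in the sources used here. Peaks were assigned to a gene when they touched the gene body or the 2 kb on either side of it, and peaks between the genes of a cluster were taken as well. This gave 1 of 743 wild-type peaks and 16 of 6253 transgenic peaks, 14 of them in the 8 genes and 2 between genes of the clusters. With 1 library per genotype no test between genotypes was possible. Intervals are exact 95% intervals and cover counting error alone.

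GABA-A receptors are chloride channels built from several subunits around a pore and opened by the transmitter GABA. A typical receptor joins alpha and beta subunits, which together form the GABA site, with a gamma subunit, which is needed for the benzodiazepine site at its border with an alpha subunit. The genes of the subunits stand in clusters that usually hold genes of the alpha, beta and gamma types side by side. In the embryonic cortex GABA is known to depolarise progenitors and young neurons, because their chloride level is high, and to act on progenitor division. H3K9me2 is laid down in large part by the methyltransferases G9a and GLP, and the series title pairs G9a with TBC1D3.

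None of the peaks overlapped the start of a transcript of these genes. The nearest was at Gabra6, where the closest edge of a transgenic peak lay 0.504 kb inside the gene from its start. The next was a peak inside Gabrb1, 15.1 kb from the start of Gabra4 and 15.5 kb from that of Gabrb1. Gabrg3, which held most peaks, had its nearest one 38.7 kb from the start. The 250 bases upstream of the starts of Gabra6, Gabrb1 and Gabrg3, from RefSeq on GRCm38.p6, are shown as examples at different distances from a peak. Capitals mark CG dinucleotides, and each run reads 5′ to 3′ on the strand of the gene. The Gabra6 run is chr11:42321073-42321322 on the minus strand, the Gabrb1 run chr5:71657671-71657920 on the plus strand and the Gabrg3 run chr7:57387216-57387465 on the minus strand.
Gabra6: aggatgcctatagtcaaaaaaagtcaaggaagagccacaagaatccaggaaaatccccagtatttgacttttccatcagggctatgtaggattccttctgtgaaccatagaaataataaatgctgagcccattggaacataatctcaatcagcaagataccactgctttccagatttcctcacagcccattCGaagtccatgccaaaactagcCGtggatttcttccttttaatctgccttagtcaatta
Gabrb1: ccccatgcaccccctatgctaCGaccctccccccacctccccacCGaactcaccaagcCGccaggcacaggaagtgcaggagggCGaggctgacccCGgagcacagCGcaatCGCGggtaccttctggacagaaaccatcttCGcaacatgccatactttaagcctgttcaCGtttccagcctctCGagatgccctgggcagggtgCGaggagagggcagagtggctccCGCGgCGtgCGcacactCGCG
Gabrg3: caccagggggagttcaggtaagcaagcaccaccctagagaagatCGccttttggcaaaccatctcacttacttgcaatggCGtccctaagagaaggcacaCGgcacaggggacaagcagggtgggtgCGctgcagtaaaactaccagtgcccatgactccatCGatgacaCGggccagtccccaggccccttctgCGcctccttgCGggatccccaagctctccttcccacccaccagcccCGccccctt
The Gabra6 run held 2 CG and 40.8% G and C, the Gabrb1 run 18 CG and 64.4%, and the Gabrg3 run 9 CG and 60.4%. Over 21045 upstream runs of coding genes the medians were 10 CG and 55.6%, and 85.2% of the runs held as many CG as Gabra6 or more. Among 11 upstream runs of the 8 genes the CG number went from 1 at Gabrg1 to 18 at Gabra2 and Gabrb1. The Gabrg1 run, with 35.6% G and C, lay 361.6 kb from the nearest transgenic peak. Whether the CG number goes with the distance to a peak was not tested. A TATAAA on either strand was found in 1 of the 11, the first Gabrb2 run, and in 11.7% of all runs. These letters describe the windows, and no peak of either library overlapped any of the 11.

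The wild-type list came from 26735120 ChIP tags and the transgenic list from 20697113, per the file headers. Peaks in both lists had a median of 6 fragments. No listed peak reached a q of 0.05, the lowest being 0.136 among wild-type and 0.0673 among transgenic peaks. Fold enrichment and −log10 p are the authors' values per peak and are used to describe and rank peaks within a list. Fragments had been extended to 57 bp for the wild-type call but to 111 bp for the transgenic call, and the part of this difference in the counts below was not tested. Listed peaks were about as wide as 1 such fragment, since half-list (median) widths were 57 bp for wild-type peaks and 115 bp for transgenic peaks. A count of 0 below means that no peak of this narrow kind was listed. It does not show that H3K9me2 was absent. Levels of the mark over longer stretches were not tested. In bulk tissue, fewer marked cells and less of the mark per cell cannot be told apart. The lists hold no expression, so the labelled tissue could not be checked with markers.

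Peaks were found in 1 of the 8 genes in the wild type and in 4 of 8 in the transgenic (50%, interval 15.7 to 84.3). Over all coding genes 0.911% held a wild-type peak and 5.69% a transgenic peak. Gene length differs greatly between these sets. The median body was 160.4 kb for the 8 genes and 17.4 kb for all coding genes. The share of genes with a transgenic peak rose with length, from 1.74% under 50 kb and 8.14% from 50 to 100 kb to 18.1% from 100 to 250 kb, 46.7% from 250 to 500 kb and 84.6% over 500 kb. The wild-type shares in the same 5 classes were 0.139%, 0.878%, 3.05%, 8.89% and 24.2%. At the peak density of their own length classes the 8 genes together would hold 4.17 transgenic peaks, and 14 were listed (interval 7.65 to 23.5). Without Gabrg3 the other 7 genes held 4 (interval 1.09 to 10.2) where their length classes give 2.20. Most of the difference thus lay in Gabrg3, and for the other 7 genes the interval includes the class value. In the wild type the 8 genes held 1 peak where their length classes give 0.522.

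**Figure D1:**
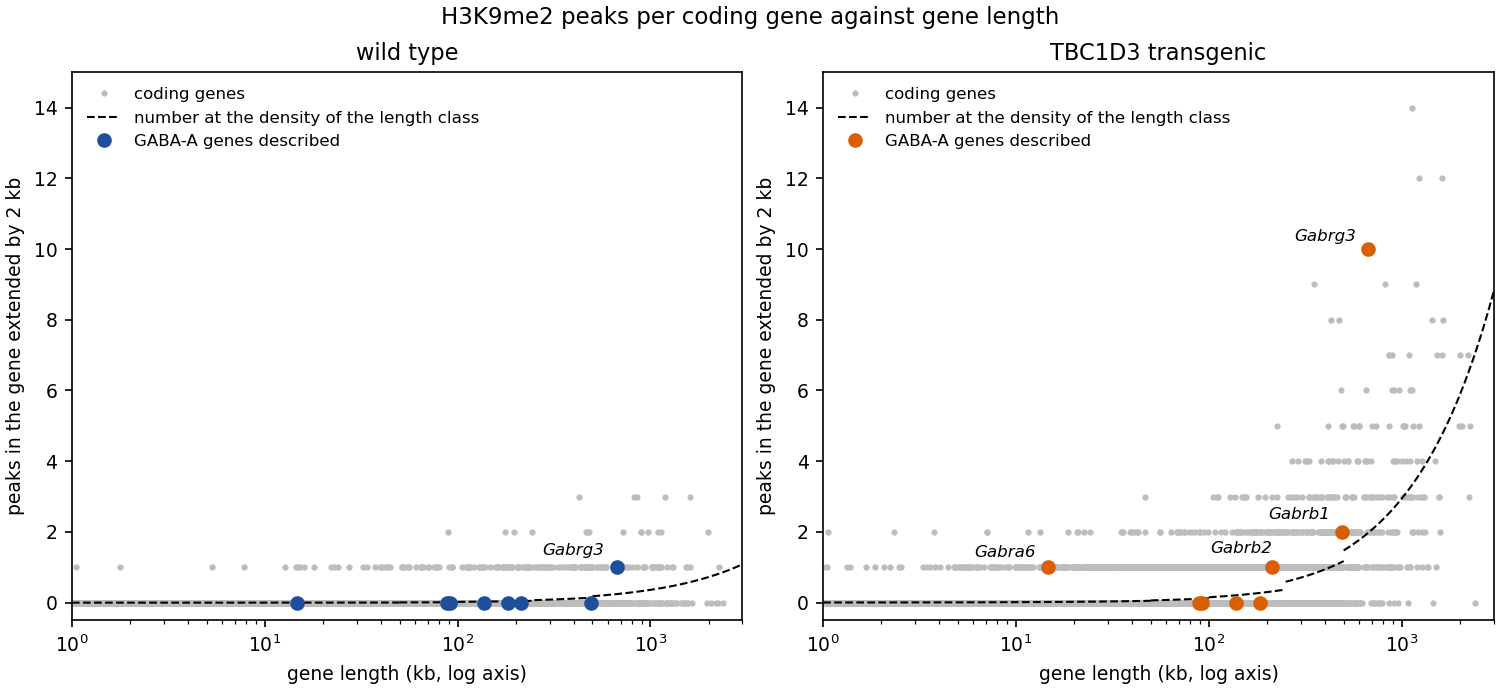
Number of peaks in each coding gene extended by 2 kb against gene length (log axis), for the wild-type library (left) and the transgenic library (right). Grey points are coding genes, coloured points the 8 GABA-A receptor genes, and dashed lines the number expected at the mean density of each length class; Gabrg3, with 10 transgenic peaks, stands above its line, while Gabrb1 with 2 and Gabrb2 with 1 stand nearer to theirs.

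Of the 4 alpha subunit genes 1 held a peak. Gabra6, an alpha subunit known from granule cells of the cerebellum, is the shortest of the 8 genes at 14.6 kb (chromosome 11, 42306437 to 42321072, GRCm38, minus strand). Its transgenic peak lay at 42320458 to 42320568 and rested on 6 fragments, with a fold of 3.80, a −log10 p of 4.55 and a q of 0.168. This is a middling peak, since 43.2% of the transgenic list had a higher −log10 p. Among coding genes under 50 kb, 289 of 16592 (1.74%) held a transgenic peak. The 18.6 kb of the extended gene would hold 0.0185 peaks at the density of that class. The interval of 1 peak runs from 0.0253 to 5.57 and just leaves out that class value. A single peak in 1 of 8 genes chosen as a family sets no rate.

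Gabra2, Gabra4 and Gabra5 held 0 peaks in both libraries. Gabra2, a subunit linked to the calming action of benzodiazepines, covers 137.5 kb, and its nearest transgenic peak lay 108.6 kb from the gene. Gabra4, a subunit of receptors outside synapses, covers 88.6 kb and shares its start with Gabrb1 head to head, with 388 bp of overlap. Its nearest transgenic peak, at 15.1 kb, is the one inside Gabrb1 and was the closest peak to any of the 8 genes that its 2 kb limit left out. The peak closest to the limit from within was that of Gabra6, 2.61 kb inside the extended edge. Gabra5, an alpha subunit prominent in the hippocampus and in the embryonic brain, covers 183.3 kb and had its nearest transgenic peak at 59.1 kb, inside Gabrg3. At the density of their length classes these 3 genes would hold 0.207, 0.110 and 0.274 transgenic peaks, so 0 was not distinguishable from that density.

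Both beta subunit genes held transgenic peaks, and these had 3 of the 4 highest −log10 p values among the 14. Gabrb1 (chromosome 5, 71657921 to 72149572, plus strand) covers 491.7 kb and encodes the first of the beta subunits. Its first transgenic peak, at 71673401 to 71673511, lay 15.5 kb from the first start of the gene and 26.2 kb before the upstream window of the second start. It rested on 7 fragments with a fold of 4.34, a −log10 p of 5.53 and a q of 0.0895. Its second peak, at 71909771 to 71909881, lay about midway along the gene, at 51.2% of its length. It too rested on 7 fragments, with a fold of 4.05, a −log10 p of 5.07 and a q of 0.125. The number of 2 peaks (interval 0.242 to 7.22) stands beside 1.16 at the density of coding genes from 250 to 500 kb. Of the 495 genes in that class, 97 held 2 or more.

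Gabrb2, a beta subunit of the most abundant adult receptor, covers 213.1 kb (chromosome 11, 42419515 to 42632591, plus strand). It held 1 transgenic peak at 42499196 to 42499320, at 37.4% of its length and 78.0 kb from the nearest start. This was the strongest peak of the 14, with 8 fragments, a fold of 4.61, a −log10 p of 6.12 and a q of 0.0673. That q is the lowest in the transgenic list and is shared with other peaks, and 7.66% of the list had a higher −log10 p. One peak (interval 0.0253 to 5.57) stands beside 0.318 at the density of its length class, in which 18.1% of genes held a peak. With peaks of a −log10 p of at least 5, Gabrb1 kept 2 and Gabrb2 kept 1, where the classes give 0.352 and 0.0872. The intervals of these counts, 0.242 to 7.22 and 0.0253 to 5.57, include the class values. At that limit 20.6% of genes from 250 to 500 kb and 5.93% of genes from 100 to 250 kb held a peak.

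The gamma subunit genes stood far apart in their counts. Gabrg1, a gamma subunit with a narrow distribution in the brain, covers 91.6 kb on chromosome 5 and held 0 peaks in both libraries. Its nearest transgenic peak lay 361.8 kb away, the longest such distance among the 8 genes. Gabrg3, the third gamma subunit, covers 670.8 kb (chromosome 7, 56716463 to 57387215, minus strand). It held 1 wild-type peak and 10 transgenic peaks, all of them inside the gene body.

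The 10 transgenic peaks of Gabrg3 (interval 4.80 to 18.4) compare with 1.98 at the density of coding genes over 500 kb and with 1.51 at the mean density of chromosome 7. Of all coding genes, 4 (0.0186%) held 10 or more, and of the 227 genes over 500 kb the same 4 did (1.76%). Among the other 3 were Opcml with 14 and Fhit with 12, and both are longer, at 1134.7 and 1612 kb. Per Mb of extended gene Gabrg3 held 14.8 peaks (interval 7.11 to 27.3), against 2.93 for its length class, and 0 of the other genes over 500 kb had a higher density. Shorter genes are outside that ranking, and some were denser, such as Ano2 with 9 transgenic peaks in 349715 bp. Of 3553 consecutive autosomal tiles as long as the extended gene, 674.8 kb, 5 (0.141%) held at least 10 transgenic peaks, and the median tile held 1. The gene was taken up with these lists known, which the interval does not allow for.

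The 10 peaks of Gabrg3 were spread along the gene rather than gathered at 1 place. Going from the 5′ end, they lay at 5.78%, 17.3%, 23.4%, 37.9%, 42.4%, 52.4%, 60.1%, 82.9%, 87.8% and 95.6% of its length, with 5 on the side of the start and 5 on the other side of the midpoint. Gaps between neighbouring peaks ran from 29.7 to 152.4 kb with a median of 52.5 kb. The outermost peaks were 29.4 kb from the 3′ end and 38.7 kb from the 5′ end. No peak overlapped any of the pseudogenes or noncoding genes annotated within Gabrg3.

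These peaks were numerous but not strong. They rested on 5 fragments in 4 cases, 6 in 2, 7 in 3 and 8 in 1. Their folds ran from 2.97 to 4.29 with a median of 3.43, where the whole transgenic list has a median of 3.62. Their −log10 p ran from 3.18 to 5.63 with a median of 3.98, against 4.33 for the list. The strongest, at 57230226 to 57230378, had a q of 0.0873 and was the 1 peak of the gene with a −log10 p of 5 or more. The weakest, at 57102838 to 57103047, was weaker by −log10 p than 92.9% of the list. The background used for the 10 peaks, recovered from pileup and fold, ran from 0.841 to 1.18 fragments with a median of 1.04. The list had a median of 0.997. The lowest value of the whole transgenic list was also 0.841, so a local background below that cannot be read from these values. At a −log10 p of at least 5 Gabrg3 thus held 1 peak, where the class over 500 kb gives 0.661. At that limit 49.3% of genes of the class held a peak and 50 of 227 held more than Gabrg3 did. The high count of Gabrg3 therefore rests on 9 peaks with a −log10 p under 5.

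**Figure D2:**
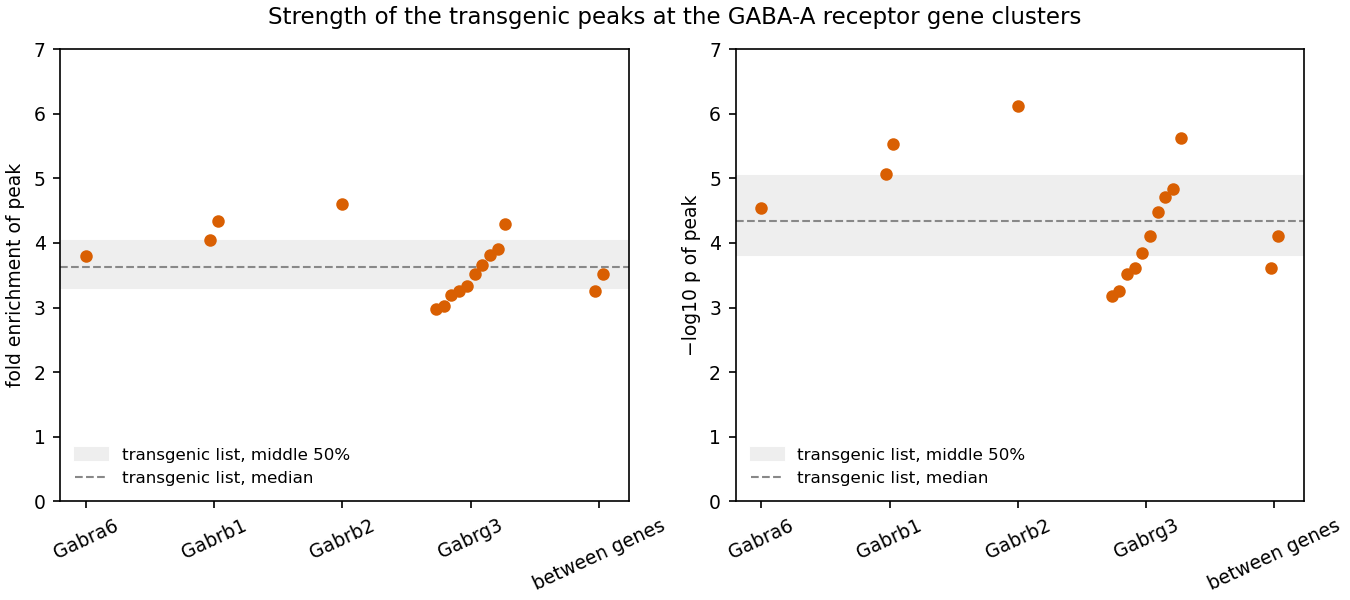
Fold enrichment (left) and −log10 p (right) of each of the 16 transgenic peaks in the genes and between them, with the median of the whole transgenic list (dashed line) and its middle 50% (grey band). The Gabrb1 and Gabrb2 peaks lie above the band on both axes, and the Gabrg3 peaks spread from below it, at a fold of 2.97, to above it, at 4.29.

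The wild-type peak of Gabrg3 lay at 56988057 to 56988113, at 59.5% of the gene. It rested on 5 fragments, the lowest number in either list, with a fold of 3.54, a −log10 p of 3.32 and a q of 1. It did not overlap a transgenic peak, and the nearest one, at 56983919 to 56984039, was 4.02 kb away. The median wild-type peak lay 93.4 kb from a transgenic peak, and 43 of 743 (5.79%) lay as near as this one or nearer. This nearness depends on the weaker transgenic peaks, since with the transgenic list shortened to its 743 peaks of lowest q the distance was 999.1 kb. At a −log10 p or a fold of at least 5 the wild-type peak itself was lost. A gene with many transgenic peaks offers more of them to be near to, and the weight of this was not tested. Of the 196 coding genes with a wild-type peak, 113 also held a transgenic peak. Over all coding genes 5.69% held a transgenic peak, and over 500 kb, the class of Gabrg3, 84.6% did. The 196 genes were not matched for length, so the 113 do not measure agreement between the lists.

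The excess of transgenic over wild-type peaks at these genes was not distinguishable from that of the lists as a whole. Of the 15 peaks in the 8 genes, 14 were transgenic, which is 93.3% (interval 68.1 to 99.8). Over both complete lists the transgenic share was 89.4%, which lies inside that interval. For Gabrg3 alone it was 10 of 11, or 90.9% (interval 58.7 to 99.8). A difference between the genotypes that is specific to these genes was therefore not detectable from 15 peaks.

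**Figure D3:**
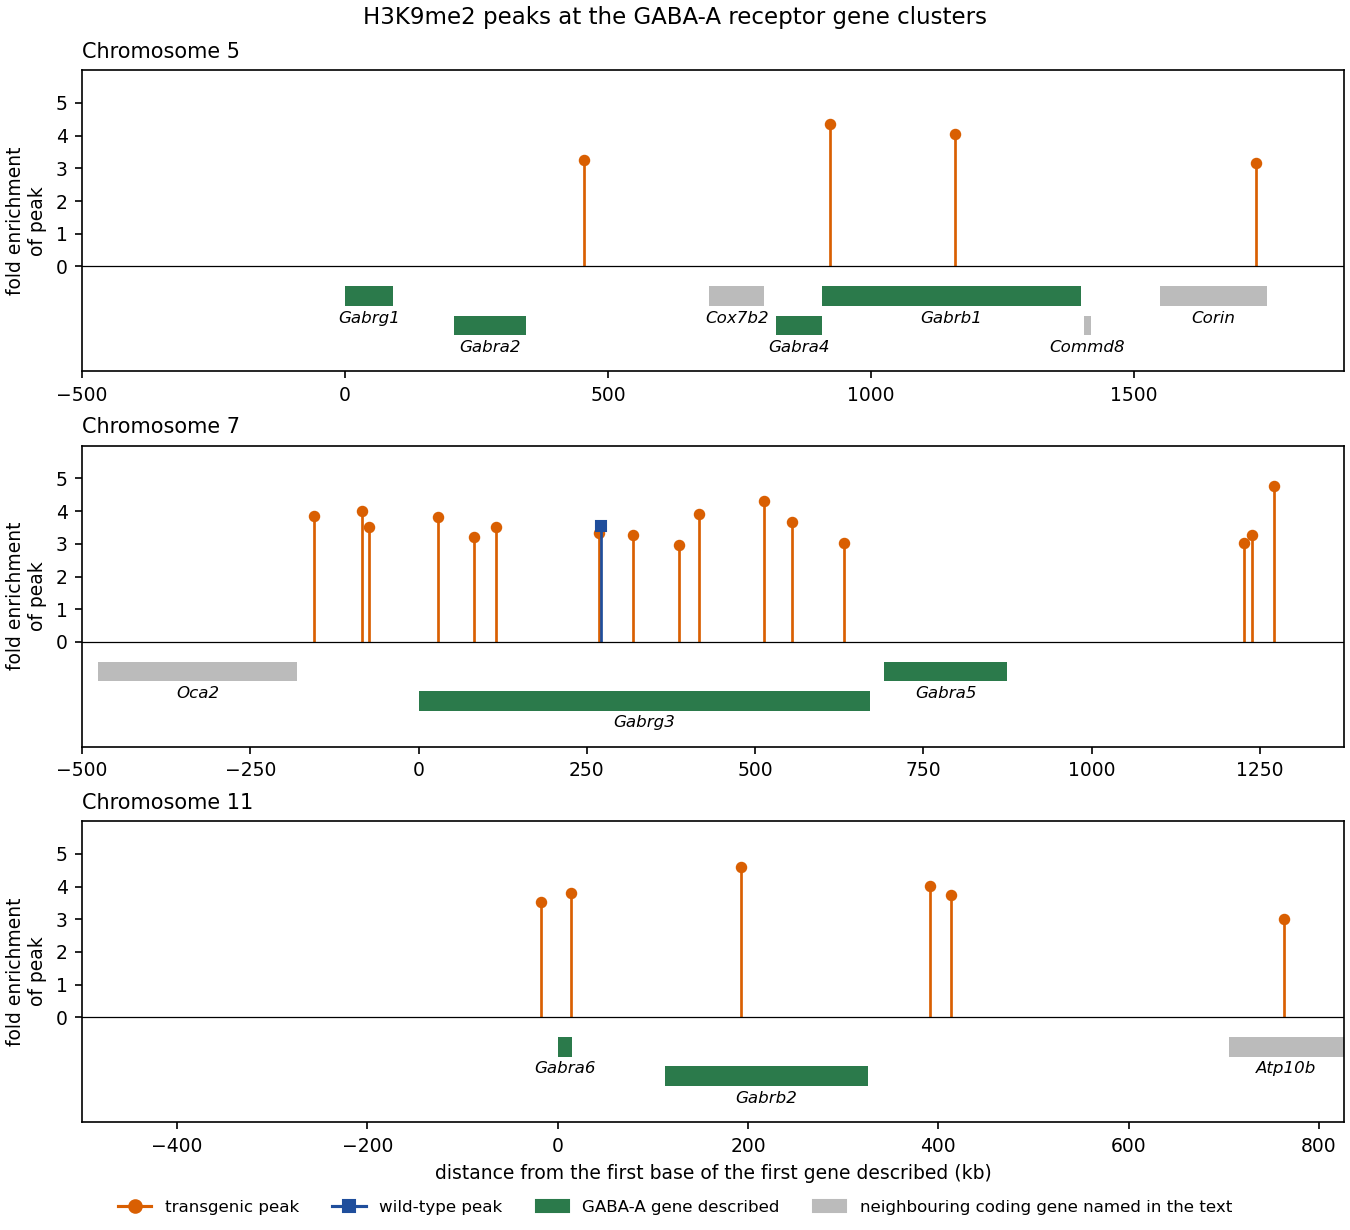
Fold enrichment of each peak (height of the line) against distance in kb from the first base of the first of the described genes on chromosomes 5, 7 and 11, out to 500 kb on both sides of them. Boxes are the 8 GABA-A receptor genes (dark green) and neighbouring coding genes named in the text (grey), drawn in 2 rows for space; 10 transgenic peaks and the 1 wild-type peak fall in Gabrg3, while Gabra5 beside it is empty.

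Within clusters the peaks were uneven. On chromosome 7 all 10 transgenic peaks of the described genes were in Gabrg3, and the neighbouring Gabra5 held 0. The 187.3 kb of the extended Gabra5 would hold 0.420 peaks at the chromosome mean of 2.24 per Mb, and the interval of 0 reaches 3.69. A lack of peaks in Gabra5 was thus not detectable. Beyond the 3′ end of Gabrg3 another 3 transgenic peaks stood 73.8, 84.1 and 155.2 kb from it, in the sequence between it and the pigmentation gene Oca2, which held 0. On the other side, another 3 lay 351.8, 363.1 and 396.2 kb beyond Gabra5. Together the 500 kb on each side of the 2 genes held 6 transgenic peaks, or 6.02 per Mb (interval 2.21 to 13.1). The chromosome mean of 2.24 lies just inside that interval. The same stretches held 0 wild-type peaks, where the interval reaches 3.70 per Mb and the chromosome mean is 0.358.

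The cluster on chromosome 5, with Gabrg1, Gabra2, Gabra4 and Gabrb1, spans 1398.5 kb and held 3 transgenic peaks, or 2.15 per Mb (interval 0.442 to 6.27) beside a chromosome mean of 2.19. Besides the pair in Gabrb1, 1 peak lay between genes, at 71204419 to 71204603, in the long stretch between Gabra2 and Cox7b2. It was 108.6 kb from Gabra2, rested on 5 fragments and had a fold of 3.26 and a q of 0.297. The interval of that cluster's density includes the chromosome mean. On chromosome 11 Gabra6 and Gabrb2 held 1 transgenic peak each. A peak between genes of that cluster, at 42288261 to 42288389, lay 18.0 kb beyond the 3′ end of Gabra6, on the side away from Gabrb2. It had 6 fragments, a fold of 3.52 and a q of 0.216. Both peaks between genes were weaker by −log10 p than those in Gabra6, Gabrb1 and Gabrb2. No wild-type peak lay between the genes of any of the 3 clusters.

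Other genes of the GABA pathway held no listed peak. Of 8 further subunit genes, Gabra3, Gabrd, Gabre, Gabrp, Gabrq, Gabrr1, Gabrr2 and Gabrr3, 0 held a peak in either library. Most of them are short, with a median of 29.6 kb, and their length classes give 0.572 transgenic peaks in all, so a count of 0 (interval up to 3.69) was not distinguishable from that. A further 27 genes were taken for GABA-B receptors, GABA synthesis and breakdown, GABA transporters, the inhibitory postsynapse and chloride transport. They held 0 peaks in both libraries, beside 3.64 transgenic and 0.433 wild-type peaks at the density of their length classes. Among them are Gphn, the scaffold gephyrin that anchors GABA-A and glycine receptors, with 467.4 kb, and Gabbr2, a GABA-B receptor subunit with 329.4 kb. Gad1 and Gad2, which make GABA, and Slc12a2 and Slc12a5, which import and export chloride, are also in this set. For the set of 27 the reading of 0 transgenic peaks, whose interval reaches 3.69, turns with the density set beside it. The length classes give 3.64, just inside the interval, and the mean densities of the chromosomes give 5.29, outside it. Of 5 glycine receptor genes, the nearest channel relatives, Glra1 held 2 transgenic peaks and the other 4 held 0. The Glra1 peaks rested on 9 fragments each, with folds of 4.65 and 4.93 and −log10 p of 6.40 and 6.84. Both −log10 p values are above 6.12, the highest among the 14 peaks of the 8 genes. The interval of 2 peaks runs from 0.242 to 7.22. It includes 0.814, which the length classes give for the 5 genes. It leaves out 0.117, the class value for Glra1 alone, in whose class 8.14% of genes held a peak.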

How the data were processed

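Each library had been called by the authors against its own input with MACS version 2.1.0.20150420, per the file headers, at a p cutoff of 0.001, without a shift model and with broad calling off. The submitters' processing notes also name BWA and mm10. The deposited signal, a pileup, counts the extended fragments at a summit once the deeper of ChIP and input was scaled down, per the file headers. Dividing by that scaling (0.951 in the wild type, 1 in the transgenic) gave whole fragments within 0.02 for 100% of peaks. The deposited fold enrichment is a ratio of pileup plus 1 to the background of the call plus 1. Values of −log10 p and of −log10 q were used as deposited by the authors, although the headers say that no q would be reported.

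Genes came from RefSeq on GRCm38.p6, the assembly mm10 represents, for autosomes and X, leaving out genes that start before 3 Mb. The gene table has no exons, so peaks could not be placed in exons or introns. All 8 genes matched by symbol. An overlap of 1 bp sufficed. Clusters joined subunit genes within 1.5 Mb of each other. Chromosome density was taken from 3 Mb to the last gene or peak. Named were the 8 genes, their cluster, its neighbours and list genes with a peak, with other genes named after their values were seen. The genes and lists were chosen with earlier results of these data known. Some genes of the clusters and the lists are not reported here. Counting was tested on simulated data. Calculations used Python 3.11.15, pandas 2.3.3 and SciPy 1.17.1.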

Additional observations from a re-analysis of the deposited data

How the results depend on the processing

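With 1 library per genotype no library could be left out, and 47 alternative values were computed for 7 results. Of these, 34 were unchanged or stayed within 1.5 times. No extension, an extension of 10 kb, assignment by midpoint and merging of peaks within 1 kb moved none beyond that. The others changed because a filter shortened the lists. A fold of at least 5 left 0 peaks in the 8 genes and 0 between them in the transgenic, and 0 in the wild type, so 0 genes held a peak in either. A −log10 p of at least 5 left 4 transgenic peaks in the genes, 0 between them, and 0 wild-type peaks in 0 genes. Gabrg3 then held 1. The transgenic list shortened to the 743 peaks of lowest q left 1 peak in 1 gene and 0 between genes, and 0 in Gabrg3. The wild-type peak of Gabrg3 then lay 999.1 kb from the nearest transgenic peak in place of 4.02 kb. That distance has no value under the stricter p or fold, where the wild-type peak is lost. Its alternatives were added after the data were seen. No paired analysis was possible because each genotype has 1 library and the result comes from no test.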

Other observations

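Coding genes next to the described genes were looked at as well. Gnpda2 and Commd8 beside the cluster on chromosome 5 and Oca2 beside that on chromosome 7 held 0 peaks in both libraries. Atp10b, a lipid-transporting ATPase beside Gabrb2, held 2 transgenic and 0 wild-type peaks in 250.1 kb, and Corin, a serine protease gene past Gabrb1, held 1 and 0 in 204.6 kb. Cox7b2, the 1 coding gene inside a cluster that encodes no GABA-A subunit, held 0 in both.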
